A study of Homo sapiens with 14 samples.

Results

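The aryl hydrocarbon receptor (AHR) and 5 genes of its pathway were followed through every group of the series: ARNT, AHRR, TIPARP, CYP1A1 and CYP1B1. They were taken by name as listed genes of the pathway, and CYP1B1 was chosen by its measured values, a strong fall from young to old cells noted in an earlier look at these data. All 6 are among the 25306 genes that every kind of deposited table lists. Poly(A)-selected RNA had been sequenced from IMR90, which are primary human fibroblasts of fetal lung. I79 young and I10 young are proliferating cells of 2 isolates of IMR90, and I79 old and I10 old are cells of the same isolates passaged to replicative senescence. I79 ICM is isolate I79 treated with inflachromene (ICM), a compound that targets HMGB1 and HMGB2, proteins of chromatin, for 6 days per the methods of the study. WT and HMGB2 KD are wild-type cells and cells with an siRNA knockdown of HMGB2, and the labels do not name their isolate. Each of the 7 groups has 2 titled replicates. WT, HMGB2 KD and I79 ICM have a column for each replicate, whereas each old or young group has a single column that was used as the authors' pooled value.

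The receptor is a transcription factor that rests in the cytoplasm with chaperones. After binding a ligand, such as a polycyclic aromatic hydrocarbon or a tryptophan metabolite, it enters the nucleus, pairs with ARNT and binds DNA at xenobiotic response elements. CYP1A1 and CYP1B1 are its classic target genes and encode cytochrome P450 enzymes that oxidise aromatic hydrocarbons and oestrogens, with CYP1B1 the usual form in mesenchymal cells. AHRR and TIPARP are targets that feed back on the receptor: AHRR competes for ARNT, and TIPARP is a mono-ADP-ribosyltransferase that limits receptor activity.

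Library totals ran from 33561766 to 41168932 counts for WT and HMGB2 KD, from 14991385 to 20632959 estimated counts for the old and young columns, and were 13290131 and 10971132 for ICM. HMGB2 itself fell from 27.2 ± 0.150 to 3.43 ± 0.292 CPM, which are counts scaled to library size (SD, n = 2), in HMGB2 KD. The 10 fibroblast markers fixed for the check of the label, from COL1A1 to FAP, were at 51.9 CPM or more in all 10 columns, although 3 of them were called higher and 1 lower in HMGB2 KD by the test described for CYP1B1 (COL1A1 at a log2 fold change of 1.00, COL3A1 at -1.18). Of the 10 epithelial, endothelial and leukocyte markers, 9 were listed for old, young and ICM columns and all 10 for WT and HMGB2 KD. Those listed summed to at most 4.64 CPM in any column, and SFTPC, CDH5 and CD3E were at 0 in WT, HMGB2 KD, old and young columns. In these bulk samples, fewer cells that express a gene and less RNA of it per cell cannot be told apart.

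The 5-base core GCGTG, or CACGC where it lies on the other strand, is the invariant part of the site that the receptor and ARNT bind. It was looked for in RefSeq promoters (GRCh38.p14, 250 bases before to 50 bases after a start), which matched 5 of the 6 genes, all but CYP1B1. The core was present in promoters of AHR (1 of 1), AHRR (2 of 2), TIPARP (1 of 3) and CYP1A1 (1 of 1) and in none for ARNT. It was in 36.5% of all 35116 promoters, so its presence sets these genes little apart. The windows with a core before the start are shown 5′ to 3′ on the strand of the gene, with the core in capitals and the distance from its first base to the start. In the order shown they lie at chr3:156674372-156674396 and chr3:156674438-156674462 (plus strand), chr5:321674-321698 and chr5:322558-322582 (plus strand) and chr15:74725571-74725595 (minus strand).
TIPARP, 208 bases before the start: cgagaaaggaCACGCcccctcgcgg
TIPARP, 142 bases before the start: aacgaacgcgCACGCgcgcgcaggg
AHRR, 30 bases before the first start: cgggcggctcGCGTGccggggtggg
AHRR, 42 bases before the second start: agaagggtggGCGTGtgcgcgcgtt
CYP1A1, 57 bases before the start: agggaaggagGCGTGgccacacgta
A match describes letters only. The window of AHR held its core after the start, and a further AHRR core lay 247 bases before the second start, too near the edge of the promoter to be shown with its flanks.

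CYP1B1 was the most abundant of the 6 genes in young cells and close to the lowest in old cells. Levels of different genes were compared as TPM, a transcript measure that allows for library size and transcript length. In the young columns, CYP1B1 stood at 56.9 TPM in I79 and 56.6 TPM in I10. ARNT followed at 29.6 and 37.5 TPM, TIPARP at 27.6 and 26.4 TPM, AHRR at 22.3 and 23.7 TPM, and AHR itself at 14.4 and 15.8 TPM. CYP1A1 was listed at 0 in both. In the old columns AHRR led in I79 with 38.7 TPM and ARNT in I10 with 33.1 TPM, while CYP1B1 was at 0.809 and 0.495 TPM. The order of TIPARP, AHRR and AHR was alike in both young columns, but with a single column for each group it has no replicate check.

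**Figure D1:**
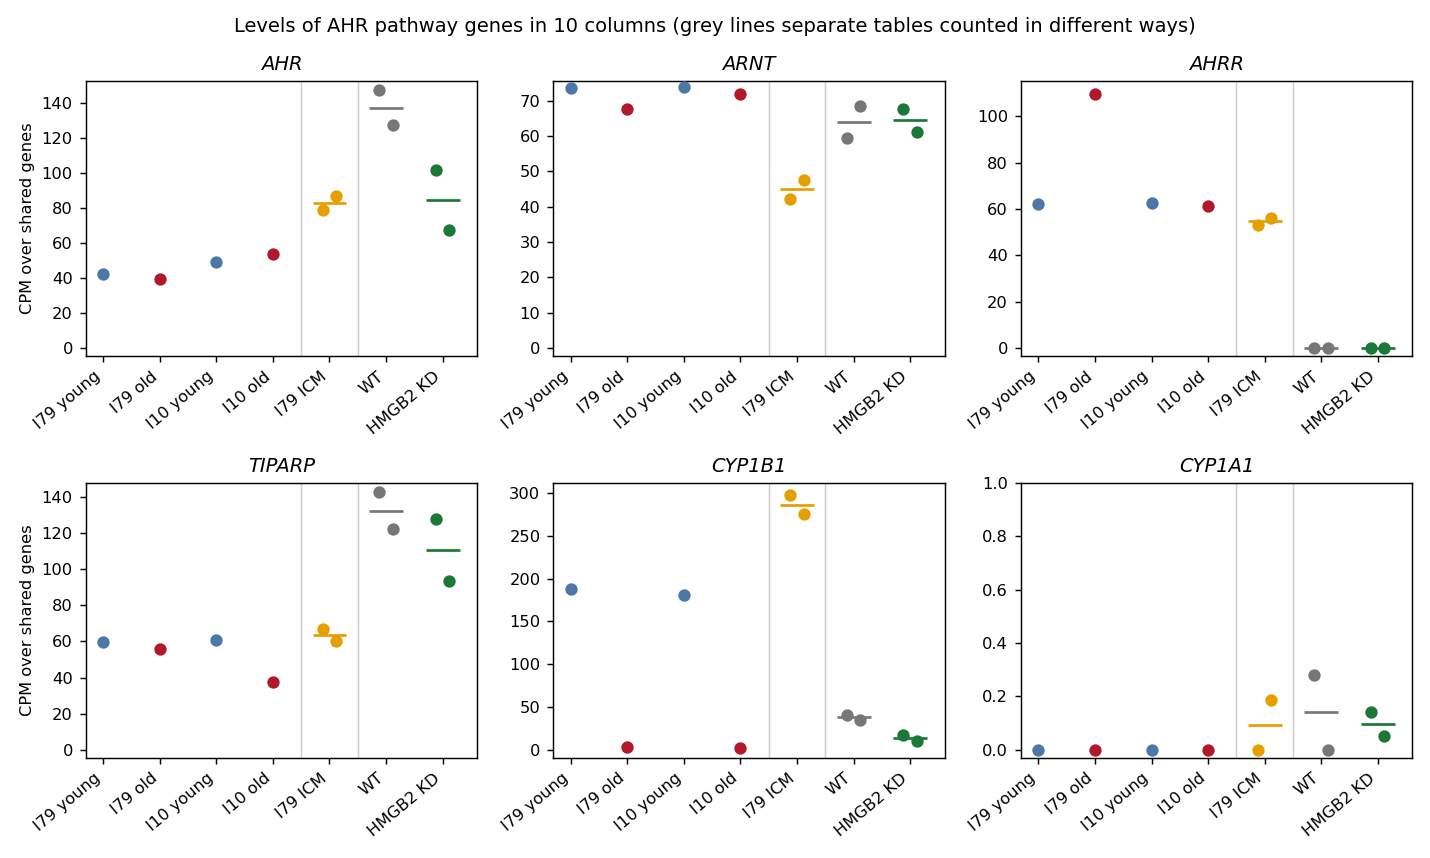
Level of each gene in all 10 columns, as CPM computed over the genes that every table lists, with points for columns, horizontal bars for the mean of 2 libraries and vertical grey lines between tables that were counted in different ways. CYP1B1 sits at 181 and 188 CPM in young, 1.68 and 2.77 CPM in old and 275 and 297 CPM in ICM columns, and CYP1A1 never exceeds 0.282 CPM.

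CYP1B1 (ENSG00000138061, chr2:38294116-38337044 of hg19, minus strand) fell from 2609 to 51 estimated counts for isolate I79, with 3052 to 32 for I10. On the scale of CPM corrected for composition this was 167 to 2.77 in I79, 60.4-fold lower, and 159 to 1.77 in I10, 90.0-fold lower. The 95% counting intervals of the log2 ratio ran from -6.34 to -5.52 in I79 and from -7.04 to -5.99 in I10. Because this contrast chose the gene, no test is given for it, and likewise for the other 5 genes in old against young cells. Of the 15116 genes that passed the low-count filter, 2 had a lower log2 ratio, with a prior count of 2, than CYP1B1 in I79 and 2 in I10. In the fit over both isolates 31 genes had a lower log2 fold change. The fall itself chose CYP1B1, so its place among all genes is only a description. Past a log2 change of 0.6 in either direction lay 41.2% of all genes in I79 and 37.3% in I10, and among the 5 pathway genes above the filter these were AHRR and CYP1B1 in I79 and CYP1B1 alone in I10.

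Transcript CYP1B1-205, the 5249-base coding form, carried 99.3% and 99.1% of the CYP1B1 reads in I79 young and I10 young, and all of them in both old columns. Exons of the antisense RNA CYP1B1-AS1 overlap 11.2% of the exonic bases of CYP1B1, and the use of strand is not stated for these tables. CYP1B1-AS1 itself had 17 and 20 estimated counts in the young columns and 7 and 10 in the old.

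Seen against the whole cytochrome P450 family, 56 protein-coding genes in the annotation, CYP1B1 was the most abundant member in both young columns, with 43.7% of the summed TPM of the family in I79 and 42.3% in I10. In old cells it ranked 11 with 0.694% in I79 and 10 with 0.700% in I10. CYP51A1, which works in cholesterol synthesis, stood at 29.6 and 28.7 TPM in young and 30.1 and 30.03 TPM in old columns. CYP27A1, a sterol hydroxylase of mitochondria, went from 8.38 to 28.03 TPM in I79 and from 7.90 to 8.54 TPM in I10. CYP2U1, a long-chain fatty acid hydroxylase, rose from 5.22 to 15.6 TPM and from 4.83 to 11.3 TPM (edgeR log2 fold change 1.59, SE 0.14, adjusted p = 0.00482). CYP26B1, which breaks down retinoic acid, rose from 0 to 69 estimated counts and from 1 to 31 (edgeR adjusted p = 0.00974). These were the 2 genes called higher among the 10 other family members tested, and none was called lower by edgeR or DESeq2 (4 were lower at an unadjusted edgeR p under 0.05), against 5.75% and 3.82% of all genes called higher and lower.

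**Figure D2:**
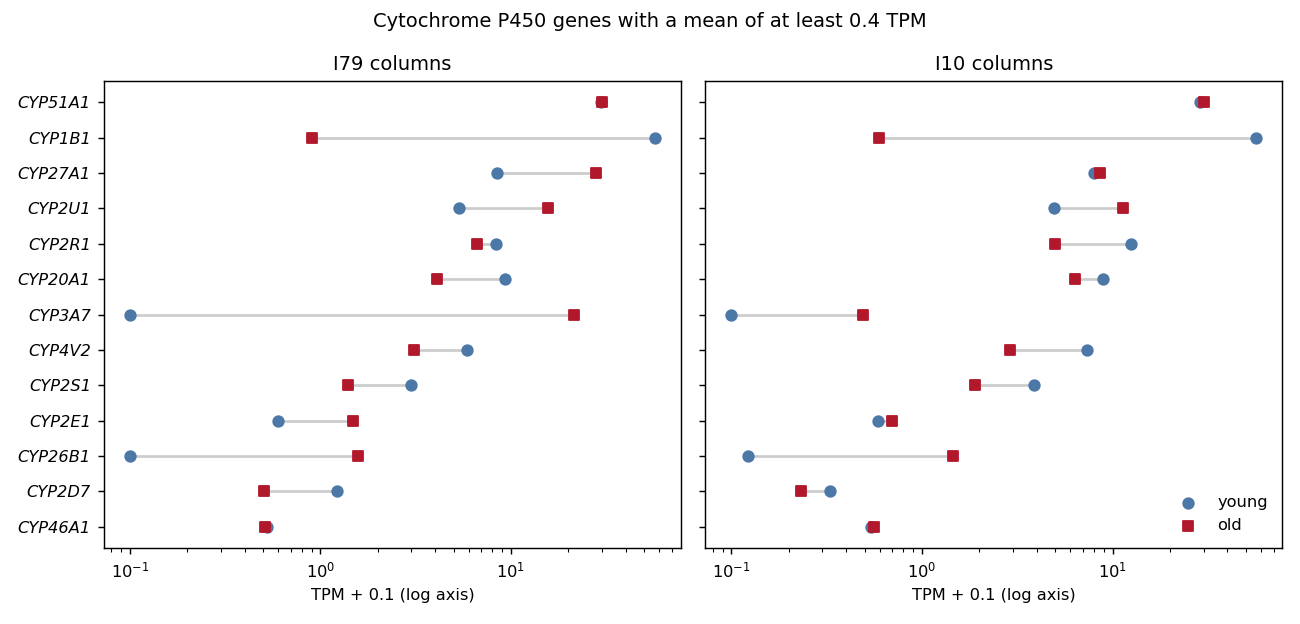
TPM plus 0.1 on a log axis for the cytochrome P450 genes with a mean of at least 0.4 TPM, in the I79 (left) and I10 (right) columns, with blue circles for young and red squares for old. CYP1B1 drops from the top of the family, 56.9 and 56.6 TPM, to 0.809 and 0.495 TPM, while CYP51A1 lies between 28.7 and 30.1 TPM in all 4 columns.

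The rule for the genes did not use the knockdown of HMGB2, and CYP1B1 was lower there too. It had 1300 and 1227 counts in the WT libraries and 596 and 417 in the HMGB2 KD libraries. As CPM these were 38.0 and 32.9 in WT and 16.3 and 10.5 in HMGB2 KD. Every knockdown library was below every WT library, and groups did not overlap, in either direction, for 53.8% of all tested genes. The log2 fold change was -1.41 (SE 0.19, edgeR quasi-likelihood test, Benjamini-Hochberg adjusted p = 0.000342), 2.65-fold lower. A gene was called when its adjusted p was under 0.01 and its log2 fold change over 0.6 in either direction, which held for 797 of 15338 genes, 5.2%, with 2.34% called lower. CYP1B1 was the 1 called gene of the 4 pathway genes tested, and 265 of the 15338 genes had a lower log2 fold change. It was called under all 10 alternatives, with log2 fold changes between -1.77 and -1.12.

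AHR was lower in the knockdown by a smaller step, and whether it was called depended on the processing. Its CPM values were 137 and 119 in WT and 98.7 and 67.0 in HMGB2 KD. These groups did not overlap either, as for 53.8% of all tested genes. The log2 fold change was -0.63 (SE 0.17, edgeR adjusted p = 0.0259), which was not called. Without the low-count filter it was called (-0.64, edgeR adjusted p = 0.000174), as it was by DESeq2 (-0.64, adjusted p = 0.00519). Without HMGB2 KD replicate 2, the library with the lowest AHR, the log2 fold change was -0.37 with an adjusted p of 0.164, and without HMGB2 KD replicate 1 it was -0.95 and the gene was called with an adjusted p of 0.00208. AHR was also called without WT replicate 2 (-0.74, adjusted p = 0.00502), and over all 10 alternatives the adjusted p ran from 8.78e-05 to 0.164.

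ARNT, the obligate partner of the receptor, stood at 55.5 and 63.8 CPM in the WT libraries against 65.5 and 60.7 CPM in the HMGB2 KD libraries. Its groups overlapped, and the log2 fold change of 0.08 (SE 0.13, edgeR adjusted p = 0.778) had a normal 95% interval from -0.17 to 0.33. TIPARP stood at 133 and 114 CPM in the WT libraries against 124 and 92.6 CPM in the HMGB2 KD libraries, which also overlapped. Its log2 fold change was -0.19 (SE 0.15, edgeR adjusted p = 0.501), with an interval from -0.49 to 0.11. Nothing in the labels says that the 2 replicates of a group are separate cultures, so these p-values measure only the spread between these libraries.

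**Figure D3:**
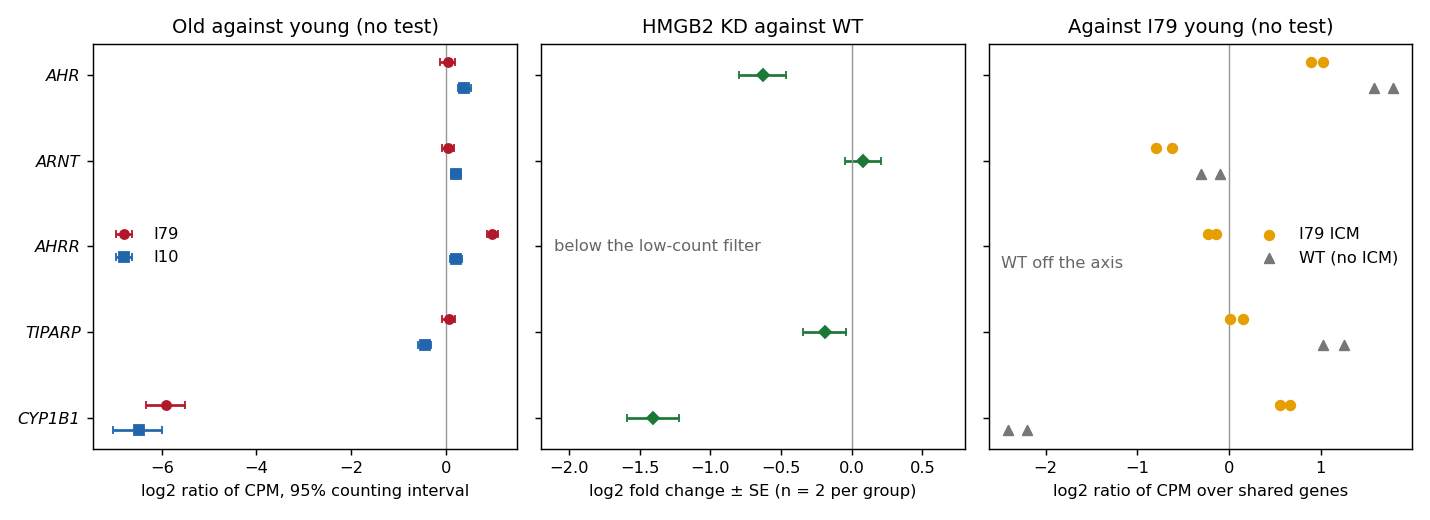
Log2 changes of 5 genes: old against young in each isolate with 95% counting intervals (left), HMGB2 KD against WT with SE (middle), and the 2 ICM libraries and the 2 WT libraries against I79 young (right). CYP1B1 lies at -5.92 and -6.49 in old cells, at -1.41 in HMGB2 KD and at 0.55 and 0.66 in the ICM libraries.

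The level of CYP1B1 in ICM-treated cells is given beside those in young and old cells. Its low value in old cells chose the gene, so the distance to old cells is only a description. ICM and old or young columns come from tables counted in different ways, so their values were set on CPM over shared genes and no test was made. These CPM were not corrected for composition. CYP1B1 was at 297 and 275 CPM in the ICM libraries, 286 ± 15.7 (SD, n = 2), against 188 CPM in I79 young and 2.77 CPM in I79 old. The mean was 1.52-fold that of I79 young and 103-fold that of I79 old. Comparison with the young column depends on which reads of the ICM tables are used: with coding and noncoding reads alone, leaving out the UTRs, the log2 ratio to I79 young was -0.003 instead of 0.61. Only the ICM columns lost their UTR reads in this, and I79 young kept its full counts, so it is not a like comparison. The ICM and the old cells of I79 share the I79 young column, so their ratios to it are given only side by side: 0.61 for ICM and -6.04 for I79 old.

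AHR was at 78.9 and 86.8 CPM over shared genes in the ICM libraries, 82.8 ± 5.63 (SD, n = 2), and at 42.6 CPM in I79 young, a log2 ratio of 0.96. ARNT was at 42.3 and 47.5 CPM against 73.5 CPM, a log2 ratio of -0.71. AHRR was at 53.2 and 56.4 CPM against 62.3 CPM, and TIPARP at 66.7 and 60.2 CPM against 59.9 CPM, with log2 ratios of -0.19 and 0.08. AHR, ARNT and CYP1B1 were thus past a log2 ratio of 0.6 in either direction, as were 60.7% of the 14517 genes compared, so these counts do not set the pathway apart.

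WT cells, whose label names no ICM, give a sense of how far columns of different tables lie apart. Differences of counting and of the cells cannot be told apart here. HMGB2 was at 29.1 and 29.3 CPM over shared genes in WT, 137 CPM in I79 young and 38.3 CPM in I79 old. Against I79 young, 43.8% of genes in WT were past 0.6, and AHR stood at a log2 ratio of 1.68, TIPARP at 1.14, ARNT at -0.20 and CYP1B1 at -2.31. The AHR ratio in WT was thus larger than that in ICM, and against WT the ICM log2 ratio of AHR was -0.73. GSTP1, a glutathione transferase, shows how wide such gaps can be: 687 and 687 CPM in ICM, 478 and 421 CPM in WT and 6.77 CPM in I79 young. For CYP1B1, ICM was 2.91 above WT on the log2 scale, and 32% of genes lay above 0.6 in that comparison. ICM was 6.64 above I79 old, but CYP1B1 was chosen by its low value in old cells, so nothing is read from this distance beside the 34.7% of genes above 0.6.

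The ICM tables assign reads to parts of the transcript. Of all reads, 61.1% and 61.9% were in coding regions in the 2 libraries. For CYP1B1 the coding region held 40.6% (95% exact binomial interval 39.0 to 42.2) of 3878 reads and 44.2% (42.4 to 46.0) of 2961 reads, and the 3′ UTR held 49.7% and 46.0%. AHRR was similarly weighted, with 38.9% and 39.1% in the coding region and no read in the 5′ UTR. AHR was at 65.8% and 65.6%, ARNT at 61.8% and 64.8%, and TIPARP at 57.6% and 63.7%. The coding shares of CYP1B1 and AHRR lay below that of all reads by more than counting error in both libraries. The lengths of the coding region and UTRs of each gene were not allowed for, so the share of all reads is no expectation for a single gene. These intervals cover counting error alone.

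**Figure D4:**
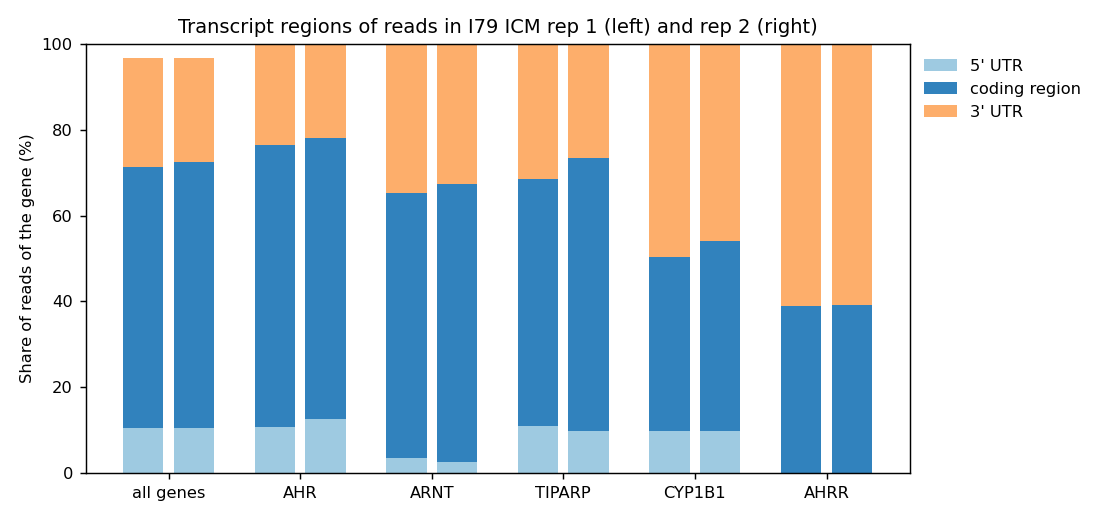
Share of reads in the 5′ UTR, coding region and 3′ UTR for all genes and for 5 pathway genes, with the left bar of each pair for ICM replicate 1 and the right for replicate 2. The coding region holds 61.1% and 61.9% of all reads but 40.6% and 44.2% of those of CYP1B1, and bars for all genes end below 100 because noncoding classes are left out.

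AHR (ENSG00000106546, chr7:16955983-17385776 of hg19, plus strand) was nearly level between young and old cells of I79 and higher in old cells of I10. It had 592 and 722 estimated counts in I79 young and old and 830 and 1030 in I10, or 37.9 and 39.2 CPM in I79 and 43.3 and 56.9 CPM in I10. The log2 ratios were 0.05 (95% counting interval -0.11 to 0.21) and 0.39 (0.26 to 0.53). Plain library totals in place of composition factors lower the median of all genes by 0.21 in this comparison, and AHR then stood at 0.01 in the fit over both isolates and, on CPM over shared genes, at -0.12 in I79. Its main coding transcript AHR-201 carried 96.1% of the AHR reads in I79 young and 81.0% in I79 old, and 87.1% and 75.0% in I10. AHR-202, annotated as a target of nonsense-mediated decay, carried 14.3% and 21.7% in I79 old and I10 old and 10.1% in I10 young, and none of the reads in I79 young. An unnamed protein-coding model, ENSG00000283321, shares 29.5% of the exonic bases of AHR and was at 0 to 12 estimated counts in these columns.

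ARNT (ENSG00000143437, chr1:150782189-150849184 of hg19, minus strand) went from 65.4 to 67.4 CPM for isolate I79 and 65.2 to 75.7 CPM for isolate I10. The fitted log2 change of 0.13 turned to -0.08 with plain library totals and to -0.16 with TPM, so its direction depends on the scale. ARNT-202 was the leading transcript throughout, with 62.9% to 68.9% of the reads.

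AHRR (ENSG00000063438, chr5:321829-438406 of hg19, plus strand) was higher in I79 old than in any other old or young column. It had 865 and 2020 estimated counts in I79 young and old and 1062 and 1169 in I10. As CPM this was 55.4 to 110 in I79, 1.98-fold, and 55.4 to 64.6 in I10, 1.17-fold. The 95% counting intervals of the log2 ratio, 0.87 to 1.10 in I79 and 0.10 to 0.34 in I10, did not overlap, but counting error is only a part of the spread between samples. On CPM over shared genes the I10 columns were level, at 62.8 in young and 61.3 in old. AHRR-201, the main coding form, carried 86.3% to 91.2% of the reads in all 4 columns.

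AHRR was all but missing from the WT and HMGB2 KD tables, with 0 and 2 counts in WT and 4 and 2 in HMGB2 KD, below the filter on low counts. The readthrough gene PDCD6-AHRR, which those tables list as a gene of its own, overlaps 58.7% of the exonic bases of AHRR on the same strand and had 2, 0, 0 and 4 counts. In the old and young columns PDCD6-AHRR took 15 to 53 estimated counts, and the ICM tables do not list it. Reads that could belong to more than 1 gene made up 1.58% to 1.72% of the totals of the WT and HMGB2 KD tables. Whether such reads account for the low AHRR values was not tested, so these counts were not read as a level of AHRR.

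TIPARP (ENSG00000163659, chr3:156391024-156424559 of hg19, plus strand) moved in opposite directions in the isolates on composition-corrected CPM, but was lower in old cells of both on TPM and on CPM over shared genes. Its estimated counts were 832 and 1027 in the young and old columns of I79 and 1027 and 713 in those of I10, and it went from 53.3 to 55.7 CPM and from 53.6 to 39.4 CPM. The log2 ratio was 0.07 (95% counting interval -0.07 to 0.20) in I79 and -0.44 (-0.58 to -0.30) in I10. The I79 interval includes 0, and only the I10 column was clear of counting error. TIPARP-207 carried 64.3% of the reads in I10 young and 48.4% in I10 old, whereas in I79 its share was 38.1% in young and 52.5% in old.

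CYP1A1 (ENSG00000140465, chr15:75011883-75017877 of hg19, minus strand) was at or near the limit of detection in every group. It had 0 estimated counts in all 4 old and young columns, which allows up to 0.156 to 0.192 CPM (3 counts per library). It had 0 and 2.5 reads in the ICM libraries, 9 and 0 counts in WT, and 5 and 2 in HMGB2 KD. WT replicate 1 was highest, at 0.263 CPM. No fold is given for a gene at these levels, and a difference between groups was not detectable at this depth.

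Of the other genes of the pathway, those known to respond to the receptor were the list with the most calls in HMGB2 KD. Among 18 such genes 12 passed the low-count filter, 4 were called lower and 2 higher, where 2.34% and 2.86% of all genes were, and their median log2 fold change was -0.69 against 0.00 over all tested genes. NQO1, a quinone reductase, fell from 895 ± 42.7 to 373 ± 18.1 CPM (SD, n = 2; log2 fold change -1.26, edgeR adjusted p = 0.000112). PTGS2, the inducible prostaglandin synthase, fell from 783 ± 306 to 137 ± 91.9 CPM, and its log2 fold change was -2.51. SERPINB2, an inhibitor of plasminogen activators, fell from 48.0 ± 24.5 to 4.81 ± 3.43 CPM. EREG, a ligand of the epidermal growth factor receptor, fell from 82.8 ± 18.0 to 29.0 ± 13.01 CPM. DESeq2 did not call PTGS2 or EREG. HES1, a transcriptional repressor of the Notch pathway, rose from 8.58 ± 0.0510 to 21.9 ± 3.28 CPM, and NEDD9, an adhesion scaffold, from 16.6 ± 2.05 to 36.98 ± 3.21 CPM. Not called were CYP2S1 at -0.66 (edgeR adjusted p = 0.0126) and IL1B at -1.19 (edgeR adjusted p = 0.0247). Several of these genes are also known targets of other pathways. The lists were chosen with earlier results of these data known, so these counts and the median are only a description.

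In old against young cells the same list had 1 call among 12 genes tested, against 9.57% of all 15116 genes, and this count depended on the processing, with 2 calls by size factors, 4 by DESeq2, 5 with plain library totals and 6 with no filter on low counts. NEDD9 rose from 4.16 to 34.2 CPM for isolate I79 and 3.29 to 33.2 CPM for isolate I10 (log2 fold change 3.18, SE 0.17, edgeR adjusted p = 0.00324). NQO1 was not called, with 560 and 129 CPM in I79 young and old and 390 and 202 CPM in I10 (edgeR adjusted p = 0.0224). SERPINB2, which fell in HMGB2 KD, had 0.320 and 13.9 CPM in I79 young and old and 0.417 and 2.32 CPM in I10, and was not called here (edgeR adjusted p = 0.0171). The list median was -0.16 beside -0.01 over all tested genes.

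The 6 chaperones and turnover factors of the receptor, which include the HSP90 genes and the ligase STUB1, had no call in either comparison by edgeR or DESeq2. In HMGB2 KD none had an unadjusted edgeR p under 0.05. In old cells 4 of the 6 did, 2 in each direction, and HSP90AB1 was at a log2 fold change of -0.57 (edgeR adjusted p = 0.0339).

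Among the 19 relatives of the receptor in the bHLH-PAS family and their coactivators, 16 were tested in HMGB2 KD and 2 were called, both higher, where 2.86% of all genes were called higher. NPAS2, a partner of BMAL1 in the circadian clock, rose from 17.9 ± 2.54 to 36.4 ± 0.411 CPM (log2 fold change 1.02, edgeR adjusted p = 0.000503). BMAL2, its relative, rose from 24.6 ± 1.32 to 38.9 ± 2.40 CPM (0.66, edgeR adjusted p = 0.00570), and leaving out any 1 library or using plain library totals ended this call. In old cells 15 were tested, 2 were called higher and 1 lower, where 5.75% and 3.82% of all genes were. EPAS1, the hypoxia-inducible factor HIF-2α, rose from 613 to 1594 CPM for isolate I79 and 459 to 1602 CPM for isolate I10 (1.59, edgeR adjusted p = 0.00644). BMAL2 rose from 28.2 to 85.9 CPM and from 31.3 to 87.7 CPM (1.55, edgeR adjusted p = 0.00378). SIM2, a repressor of the same family, fell from 13.6 to 2.604 CPM and from 8.76 to 1.38 CPM (-2.51, edgeR adjusted p = 0.00488), a call that was lost without the isolate term. ARNT2, the close relative of ARNT, was not called in either comparison, with log2 fold changes of 0.42 in HMGB2 KD and 0.80 in old cells.

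Enzymes that make or use tryptophan metabolites, which include ligands of the receptor, had 1 call in each direction among 11 tested in HMGB2 KD, where 2.86% of all genes were called higher and 2.34% lower. KYNU, kynureninase, fell from 136 ± 28.7 to 43.3 ± 17.9 CPM (log2 fold change -1.65, edgeR adjusted p = 0.000408). SLC7A5, an amino acid transporter that carries tryptophan and kynurenine, rose from 113 ± 9.01 to 214 ± 55.5 CPM (0.92, edgeR adjusted p = 0.0027), a call that ended without HMGB2 KD replicate 2. AADAT, a kynurenine aminotransferase, was the 1 called gene of 10 in old cells, a share near the 9.57% of all genes, and fell from 13.2 to 4.77 CPM for isolate I79 and 11.7 to 4.31 CPM for isolate I10 (-1.46, edgeR adjusted p = 0.00806). IDO1, which opens the tryptophan ring, stayed at or below 0.109 CPM in WT, HMGB2 KD, old and young columns.

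The partners of P450 enzymes and the conjugating enzymes had 1 call among 12 tested in HMGB2 KD, beside 5.2% of all genes. HMOX1, heme oxygenase, rose from 52.0 ± 1.62 to 101 ± 13.9 CPM (log2 fold change 0.95, edgeR adjusted p = 0.000503). POR, which passes electrons to all microsomal P450 enzymes, was at -0.47 (edgeR adjusted p = 0.0280) and was not called. In old cells 2 of 12 were called, beside 9.57% of all genes. CYB5A, cytochrome b5, rose from 24.5 to 82.1 CPM and from 22.1 to 72.1 CPM (1.73, edgeR adjusted p = 0.00356). SULT1A1, a phenol sulfotransferase with near-identical copies in the genome, fell from 4.42 to 0.217 CPM and from 3.55 to 0.442 CPM (edgeR adjusted p = 0.00967). In the PARP family, to which TIPARP belongs, none of 15 tested was called in HMGB2 KD by edgeR or DESeq2 (1 higher and 1 lower at an unadjusted edgeR p under 0.05), and PARP1 alone of 16 was called in old cells, no more than the 9.57% of all genes, and fell from 157 to 62.5 CPM and from 161 to 64.9 CPM (-1.32, edgeR adjusted p = 0.00412).

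**Figure D5:**
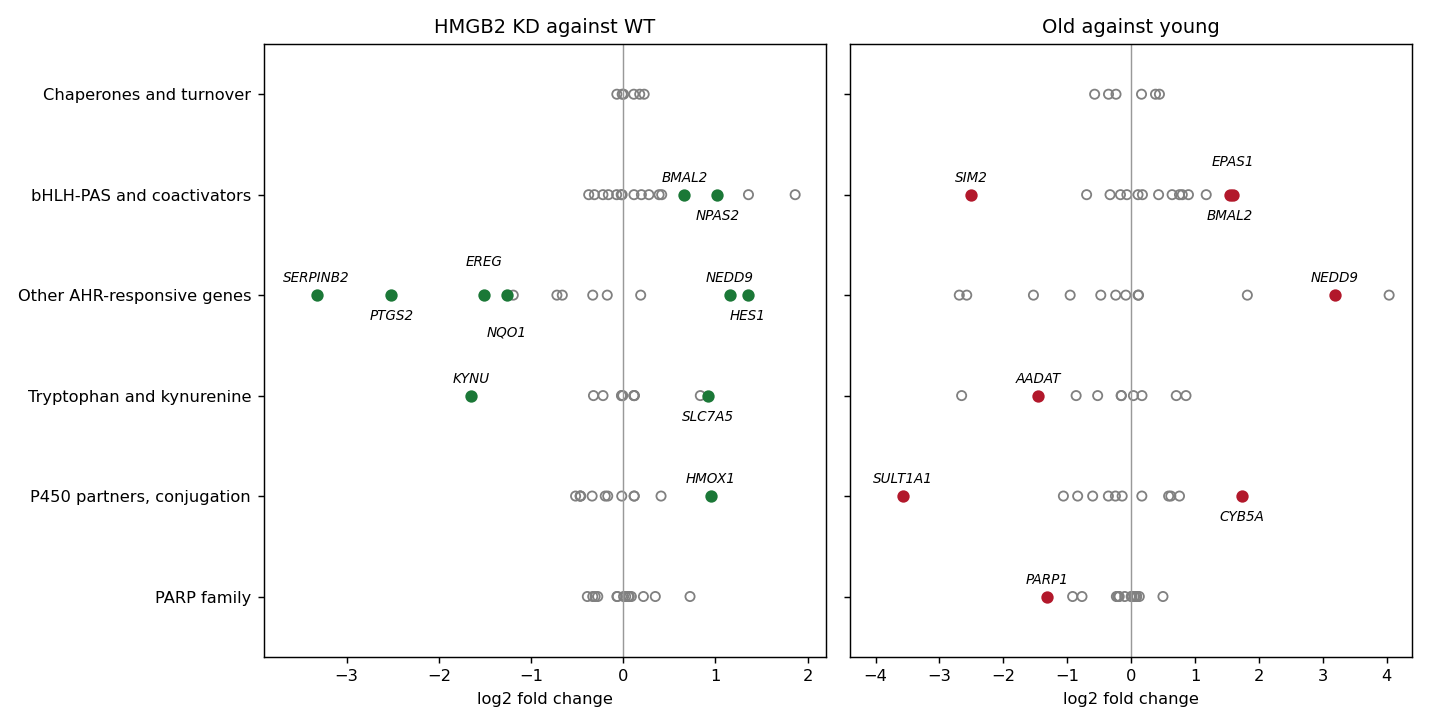
Log2 fold change of every tested gene in 6 lists of pathway genes, for HMGB2 KD against WT (left) and old against young (right), with filled and named points for called genes and open circles for the others. The other AHR-responsive genes hold 6 of the filled points in HMGB2 KD, 4 of them below 0, and 1 in old against young.

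The nearest genes on either side of CYP1B1 showed no fall of its size. RMDN2, a protein-coding gene that overlaps CYP1B1 on the opposite strand, stood at 3.65 and 3.26 CPM in I79 young and old and at 4.59 and 3.87 CPM in I10. CDC42EP3, the nearest protein-coding gene on the left that does not overlap it, at 328505 bases, stood at 185 and 296 CPM in I79 young and old and at 232 and 452 CPM in I10 (edgeR adjusted p = 0.0133, not called). In HMGB2 KD CDC42EP3 rose (log2 fold change 1.34, SE 0.19, edgeR adjusted p = 0.000542), from 1238 and 2061 to 3568 and 5352 counts. ATL2 on the right, at 184052 bases, was at -0.25 in old cells and -0.24 in HMGB2 KD and was not called. Of the 12 nearest protein-coding neighbours of the 6 genes, overlapping genes left out, 8 were tested. In old cells edgeR called none, beside 9.57% of all genes, DESeq2 called 2, and 4 had an unadjusted edgeR p under 0.05. Of the same 8, edgeR called 2 in HMGB2 KD, beside 5.2% of all genes. In HMGB2 KD the other call was CTSK, cathepsin K, which starts 136 bases from ARNT and fell by 0.85 on the log2 scale (edgeR adjusted p = 0.00468), a call that was lost without WT replicate 1 or HMGB2 KD replicate 2.

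Within the P450 family in HMGB2 KD, CYP4V2, a fatty acid hydroxylase, was the other gene called lower (log2 fold change -0.75, edgeR adjusted p = 0.00893) among 11 other members tested, and the call was lost without WT replicate 1, WT replicate 2 or HMGB2 KD replicate 2. The median of these 11 was -0.47, against 0.00 over all tested genes, of which 2.34% were called lower.

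The genes whose pattern was most like that of each pathway gene were found over the 8 old, young, WT and HMGB2 KD columns, by the root mean square difference of log2 CPM centred within each table, among 12833 genes. The smaller this difference, the closer the pattern. For CYP1B1 the nearest were DIRAS3 at 0.36 and TBX4 at 0.43, and each fell in both isolates and in HMGB2 KD, as the measure requires. In ICM, which the measure did not use, their log2 ratios to I79 young were -4.84 and -3.77, where CYP1B1 was at 0.61. In WT, which had no ICM, they were -0.74 and -4.48, where CYP1B1 was at -2.31. TBX4 was thus lower in WT than in ICM. For AHR the nearest was AP1S2 at 0.09, for ARNT EXOC4 at 0.03 and for TIPARP ZNF525 at 0.06. These are descriptions over columns that share libraries and tables, with no test.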

How the data were processed

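The WT and HMGB2 KD tables hold unnormalised counts for gene symbols, as the authors deposited them. Per the labels, reads had been aligned with STAR 2.6.0c to GRCh37 and counted with featureCounts, although these tables close with summary rows of another counter (16.9% to 18.0% of their totals, left out here); whether strand was used is not given in the sources used here. For old and young cells the authors deposited 1 table per group with estimated counts and TPM per transcript, whose tool and handling of replicates are not given in the sources used here. Both were summed per gene, and estimated counts were rounded. For ICM the authors deposited counts per transcript region, from short-read libraries matched to ribosome profiling. Symbols were brought to GENCODE names (97.7% of transcript identifiers matched).

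The genes and lists were chosen with earlier results of these data known. Tests used edgeR 4.0.16 (R 4.3.3) with TMM factors, filterByExpr and the quasi-likelihood test with Benjamini-Hochberg adjustment: HMGB2 KD against WT without covariates, and old against young with isolate as covariate, so that the 2 isolates serve as replicates. Genes were called at an adjusted p under 0.01 and a log2 fold change over 0.6 in either direction. CPM are TMM-scaled within a comparison. Where tables are set side by side, CPM are scaled to plain totals over the genes shared by all tables, without TMM factors. Log ratios of CPM use a prior count of 2. SE is the log2 fold change over the root of the F statistic. Alternatives were other scalings, no filter, DESeq2 1.42.0, an RUVs factor, a replicate block and left-out libraries. Besides the 6 genes, the text names every called gene of a list and 1 or 2 uncalled ones for their role, called or abundant P450 genes, neighbours and the genes of most similar pattern. The code was tested on simulated data.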

Additional observations from a re-analysis of the deposited data

Results flagged for a closer look

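TIPARP was singled out because its change from young to old cells had opposite signs in the isolates, with log2 values of 0.07 in I79 and -0.44 in I10, a difference of 0.51. Each value rests on 1 column for each group, and the difference was not tested. With CPM over shared genes the I79 columns stood at 59.9 in young and 55.8 in old, and on TPM at 27.6 and 24.4, so that the sign in I79 depends on the scaling.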

How the results depend on the processing

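In HMGB2 KD against WT, 797 genes were called, with 312 to 999 when a library was left out. The lowest count came without HMGB2 KD replicate 2. Plain library totals changed the share of higher calls from 55.0% to 44.3%. CYP1B1 was called throughout, between -1.77 and -1.12 over left-out libraries. AHR became called with no filter on low counts (-0.64) and with DESeq2 (-0.64), and ran from -0.95 to -0.37 over left-out libraries. ARNT ran from -0.018 to 0.18, with the negative value without WT replicate 1, and TIPARP from -0.43 to 0.0050, with the positive value without HMGB2 KD replicate 2; neither was called in any of these. In old against young, 1447 genes were called (60.1% higher), against 3130 with plain library totals (32.6% higher), 4251 with no filter and 3860 at an adjusted p under 0.05. Plain totals moved the log2 changes to 0.012 for AHR, -0.081 for ARNT, 0.39 for AHRR and -0.40 for TIPARP, and TPM moved them to -0.16 for ARNT, 0.44 for AHRR and -0.42 for TIPARP. With I79 alone they were 0.048 for AHR, 0.045 for ARNT, 0.98 for AHRR, 0.065 for TIPARP and -5.86 for CYP1B1 (with a prior count). With I10 alone they were 0.39 for AHR, 0.21 for ARNT, 0.22 for AHRR and -0.44 for TIPARP. Beside the isolate term, a left-out column would leave no residual degrees of freedom. For ICM, WT as the reference gave -0.73 for AHR, -0.51 for ARNT, 8.95 for AHRR (set by its near-zero WT counts), -1.06 for TIPARP and 2.91 for CYP1B1, and coding and noncoding reads alone gave -0.91 for AHRR and -0.0030 for CYP1B1. Over single ICM libraries the ratios ran from 0.89 to 1.03 for AHR, -0.80 to -0.63 for ARNT, -0.23 to -0.14 for AHRR, 0.01 to 0.15 for TIPARP and 0.55 to 0.66 for CYP1B1. The causes were not tested. With coding and noncoding reads alone TIPARP went from 0.08 to -0.012, just below the range of the single ICM libraries. Only the ICM columns lost their UTR reads in this alternative, and the other columns kept their full counts. Within 1.5 times of the reported counts of calls lay 548 to 1187 in HMGB2 KD and 1714 to 2167 in old against young, apart from the counts given here. In old against young the calls per list ran from 1 to 6 for the other AHR-responsive genes, 2 to 8 for the bHLH-PAS list, 1 to 3 for the tryptophan list, 2 to 7 for the P450 partners, 1 to 3 for the PARP family and 0 to 1 for the chaperones, and of all list counts 22 moved by more than 1.5 times. AHRR and CYP1A1 were too low in WT and HMGB2 KD to be tested there.

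Replicate numbers are shared by WT and HMGB2 KD, but same-numbered libraries deviated together only weakly (r = 0.124 over genes, 2 pairs), so the numbers were not taken as pairs. A replicate block raised the calls to 1243 and called AHR, at -0.65.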
